A study of Mus musculus with 9 samples.

Results

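Apolipoproteins are the protein parts of lipoprotein particles, which carry cholesterol and other lipids between cells. The 6 genes described here encode such proteins or close relatives of them in function, and were taken by symbol from the 18571 genes of the deposited expression table. Apoe, Apoc1, Apoc4 and Apoc2 lie next to each other on chromosome 7, while Apod is on chromosome 16 and Clu on chromosome 14. All 6 symbols were found, each in a single row, and all 6 passed the filter on low counts that left 14696 genes for testing. Apoc1 and Apoc4 were the members with the fewest counts in WT, with at most 10 and 1.35 estimated counts per library there.

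RNA was sequenced from cells captured on plates with an antibody to CD45, a surface protein of blood-derived cells and microglia, after papain digestion of cortex and hippocampus of perfused mice from which the meninges had been removed. The mice were 9 months old, on a C57BL6/J background, and formed 3 groups of 3 libraries each. The wild type (WT) group carried no listed transgene. The APP/PS1 group carried the APP/PS1 transgenes, which drive amyloid deposition in the brain. The third group, called cKO here, carried APP/PS1 together with Cx3cr1-CreER and homozygous floxed Cx43 (Cx43-flox/flox), in which a tamoxifen-dependent Cre made from the Cx3cr1 locus is meant to delete connexin 43 (Cx43, encoded by Gja1) in microglia. The treatment text, which is the same for all 9 libraries, gives tamoxifen by gavage at 8 months of age, at 0.1 mg/g for 5 days. No group carried Cre or floxed Cx43 without APP/PS1, Cre from this locus also acts in macrophages at the borders of the brain, and the labels do not say whether a library came from a single mouse.

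Apolipoprotein E is the main lipoprotein component made in the brain. Astrocytes make most of it in health, microglia near amyloid make large amounts of it, cells take it up through lipoprotein receptors, and it also binds TREM2 on microglia. The apolipoproteins C-I, C-II and C-IV ride on the same particles and are made mainly in liver and in macrophages, where the cluster is known to respond to the lipid-sensing LXR receptors. Clusterin, also called apolipoprotein J and encoded by Clu, is a secreted chaperone made chiefly by astrocytes, and apolipoprotein D, encoded by Apod, is a lipocalin that binds small lipids and is made by oligodendrocytes, astrocytes and perivascular cells.

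On the GRCm38.p6 mouse build all 4 cluster genes are on the minus strand. Apoe spans chr7:19696244-19701310, and its longest coding transcript has 4 exons and 1408 nt. Apoc1 spans chr7:19689480-19692659 with 3 exons and 532 nt, Apoc4 spans chr7:19678084-19681460 with 3 exons and 538 nt, and Apoc2 spans chr7:19671579-19677941 with 5 exons and 727 nt. The whole cluster covers 29732 nt. Apoc2 and Apoc4 are 142 nt apart, Apoc4 and Apoc1 are 8019 nt apart, and Apoc1 and Apoe are 3584 nt apart. Apod spans chr16:31296192-31314808 on the minus strand, and Clu spans chr14:65968483-65981548 on the plus strand. A readthrough gene, Gm44805, joins Apoc4 to Apoc2 and spans chr7:19671579-19681460, and all of its 765 exonic nt lie in exons of those genes. It shares 646 of the 813 exonic nt of Apoc2 (79.46%) and 119 of the 538 of Apoc4 (22.12%), and none with Apoc1 or Apoe. Reads of 50 nt in the shared exons could be given to either gene, which makes the separate counts of Apoc2, Apoc4 and Gm44805 uncertain.

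Apoe and Apoc4 were the cluster genes with the largest rises in APP/PS1, and the 250 nt before an annotated start of each are shown for that reason, from the RefSeq promoter table of GRCm38.p6, 5′ to 3′ on the minus strand. That table held windows for 4 of the 6 members. Capitals mark matches to 4 short motifs, each searched on both strands. AGGTCA is a half-site of nuclear receptors such as LXR and RXR, and GAGGAA is a core bound by ETS factors such as PU.1. The others were the E-box CACGTG and the TATA box, searched for with the letters TATAAA.
Apoe (chr7:19699189-19699438): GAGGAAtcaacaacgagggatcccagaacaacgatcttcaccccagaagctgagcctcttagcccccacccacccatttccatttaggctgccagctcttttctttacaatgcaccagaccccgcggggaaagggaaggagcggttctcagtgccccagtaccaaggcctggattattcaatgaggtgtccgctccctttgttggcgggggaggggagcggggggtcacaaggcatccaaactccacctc
Apoc4 (chr7:19681461-19681710): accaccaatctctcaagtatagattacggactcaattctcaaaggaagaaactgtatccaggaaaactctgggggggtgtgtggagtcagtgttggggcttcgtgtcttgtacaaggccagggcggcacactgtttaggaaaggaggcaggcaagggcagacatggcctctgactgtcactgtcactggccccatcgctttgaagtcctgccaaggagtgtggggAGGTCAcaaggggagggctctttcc
The Apoe window, before the start at 19699188, held a single GAGGAA from 250 to 245 nt before the start and none of the other motifs. The table holds 3 Apoe windows, all downstream of the annotated 5′ end of Apoe at 19701310 and so inside the gene. The one before the start at 19698621 held the TATA box letters on both strands, from 96 to 91 and from 100 to 95 nt before that start, and the one before 19698398 held a GAGGAA from 132 to 127 nt before it. The Apoc4 window held a single AGGTCA, from 25 to 20 nt before its start. Of all 32851 windows of this length in the table, 23.3% held GAGGAA, 14.0% held AGGTCA and 12.4% held the TATA box letters, so that all of these matches are of common kinds. The Apoc2 window held an AGGTCA 115 to 110 nt before its start, and the Apod window a GAGGAA 116 to 111 nt before its start.

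Libraries were alike in depth, with 18907681 to 19565354 estimated counts each, and the biological coefficient of variation within groups was 3.14%. The replicates are numbered 1 to 3 in the labels, and p-values measure the spread between these libraries, which may be technical. Gja1, the targeted gene, was at 34.0, 31.6 and 35.1 CPM (counts scaled to library size) in the WT libraries, 39.7, 37.0 and 42.5 in APP/PS1 and 27.2, 25.3 and 28.1 in cKO. Its log2 change from APP/PS1 to cKO was -0.56 ± 0.060 (SE, adjusted p = 7.95e-09), and counts per gene do not separate the floxed part from the rest. Of 16 astrocyte markers 15 also had an adjusted p under 0.05 and were lower in cKO than in APP/PS1. The part of astrocytes in the fall of Gja1 was not tested. Cx3cr1, whose locus carries the Cre, fell to 1186 to 1231 CPM in cKO from 2223 to 2247 in APP/PS1. The Y-linked gene Ddx3y had 0 to 2.34 counts in the cKO libraries and 4137 to 4538 in the other 6, so that sex and genotype cannot be told apart in either comparison with cKO. The 14 homeostatic microglial genes summed to 29944 to 43047 CPM, and no list of markers of other cells summed to more than 7385. Markers of other cells were present in each library and no marker on those lists was at 0 in any of them.

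In what follows a gene is called when its adjusted p, from the edgeR quasi-likelihood test with Benjamini-Hochberg adjustment over all 14696 tested genes, is under 0.05. Between APP/PS1 and WT 5 of the 6 members were called higher and none lower, while 59.0% of all tested genes were called, 26.9% higher and 32.0% lower. Between cKO and APP/PS1 1 member was called higher and 4 lower, against 55.0% of all genes, 27.3% higher and 27.7% lower. Between cKO and WT 3 members were called higher and 1 lower, against 47.7% of all genes, 24.7% higher and 23.0% lower. The median log2 change over the members was 1.08, -0.83 and 0.42 in these comparisons, beside -0.036, -0.011 and -0.0086 over all tested genes. The split depends on the scale, since 45.7% of the genes called in APP/PS1 against WT were higher here and 14.7% on TPM values. With about every second gene called, a call by itself says little about a member, and the sizes and library values below carry more. The APP/PS1 libraries enter both of the first comparisons and the WT libraries enter the first and the last, so that opposite or like directions between them are not independent.

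**Figure D1:**
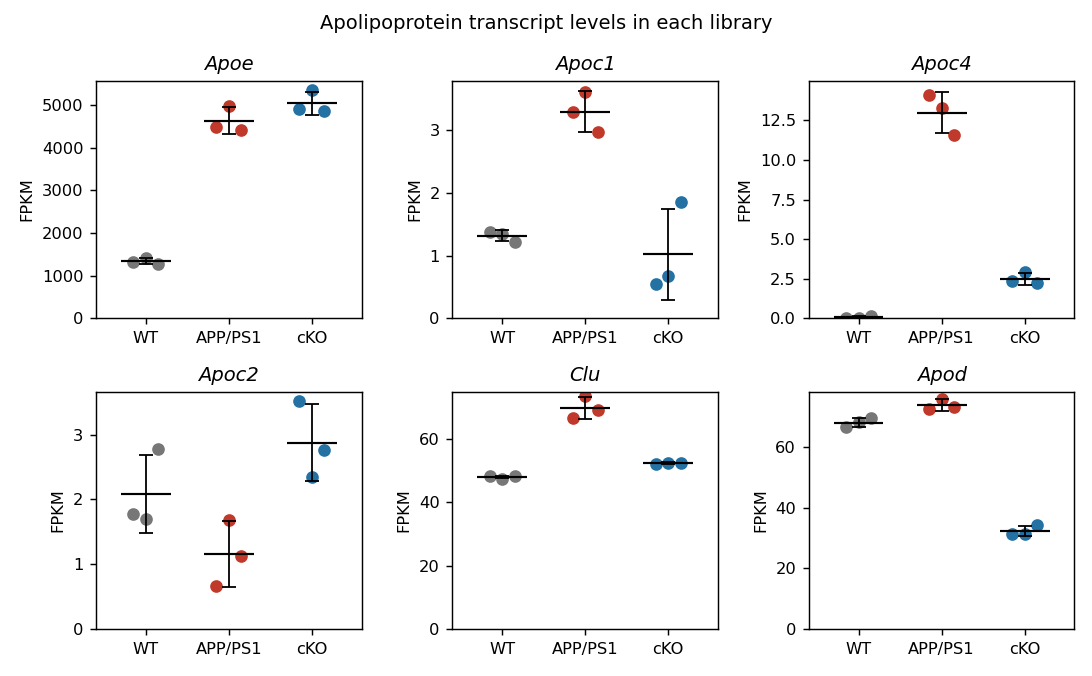
FPKM of each of the 6 genes in every library (points), by group, with the group mean (wide bar) and SD (error bar) over 3 libraries. Each panel has its own axis from 0. Apoe lies far above WT in both amyloid groups, while Apoc4, Apoc1 and Clu are highest in APP/PS1 and Apod is lowest in cKO.

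Apoe was by far the most abundant member. Its level per transcript length was 1314, 1411 and 1285 FPKM in the WT libraries, 4497, 4995 and 4410 in APP/PS1 and 4911, 5365 and 4864 in cKO. All 6 amyloid libraries were above all 3 WT libraries, and the APP/PS1 and cKO libraries overlapped. Among all genes of a library Apoe ranked 33 to 36 by TPM in WT, 6 to 8 in APP/PS1 and 4 to 5 in cKO.

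Apoe was 3.81-fold higher in APP/PS1 than in WT (log2 change 1.93 ± 0.066 SE, adjusted p = 6.81e-08). Between cKO and WT it was 4.07-fold higher (2.02 ± 0.066, adjusted p = 8.08e-08). It took 0.164% ± 0.0081 (SD, n = 3) of all counts in WT, 0.567% ± 0.0387 in APP/PS1 and 0.618% ± 0.0338 in cKO. All 6 members together took 0.186%, 0.595% and 0.634%, so that most counts of the 6 genes were of Apoe in each group. In a bulk library more cells of a type and more RNA per cell cannot be told apart.

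Between cKO and APP/PS1 the level of Apoe differed by a log2 change of 0.09 ± 0.063, with an approximate 95% interval of -0.03 to 0.22 and an adjusted p of 0.255. Within pairs of libraries with the same number it was higher in cKO in 3 of 3, by 402, 338 and 444 CPM. Blocking on the replicate number, the change of 0.09 was called at an adjusted p of 0.000725. It was also called without APP/PS1 replicate 2 (0.15, adjusted p = 0.0258), on TPM values (0.29, adjusted p = 0.000513), with length offsets (0.24, adjusted p = 0.00397) and with GC and length offsets (0.47, adjusted p = 2.38e-07). Direction was positive in all 14 processing alternatives and all 6 fits without a library, and 5 and 1 of these were called. The order of the levels was therefore WT, then APP/PS1 and cKO together, with a difference between the latter 2 that depended on the processing.

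**Figure D2:**
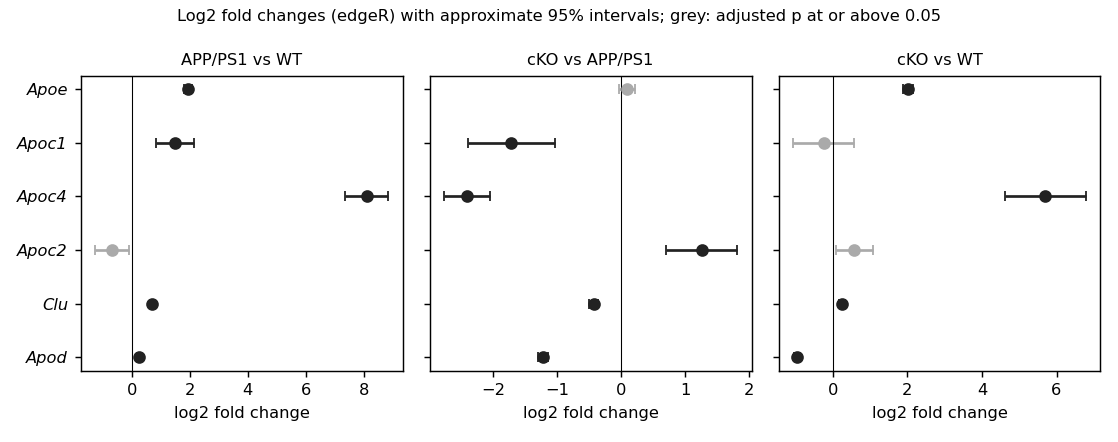
Log2 fold changes of the 6 genes from edgeR in 3 comparisons, with approximate 95% intervals. Black points were called at an adjusted p under 0.05 and grey points were not, and axes differ between panels. The Apoc4 values against WT rest on WT libraries with 0 to 1.35 counts and are not bounds.

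Apoc4, which encodes a minor apolipoprotein of very-low-density lipoproteins, had 0, 0 and 1.35 estimated counts in the WT libraries, 125, 121 and 105 in APP/PS1 and 21.0, 26.9 and 20.5 in cKO. Groups did not overlap in any pair. With these counts Apoc4 passed the filter on low counts only through the amyloid groups, where it is high. Its calls against WT, counted above among the members called higher, rest on this. In FPKM its level was at most 0.15 in WT, 11.6 to 14.1 in APP/PS1 and 2.23 to 2.94 in cKO, a small amount beside Apoe. Against a floor of 3 counts per WT library Apoc4 was at least 42.7-fold higher in APP/PS1 (adjusted p = 2.93e-16) and at least 8.07-fold higher in cKO (adjusted p = 2.20e-09). These bounds hold for the counts assigned to Apoc4 alone, and with those of the readthrough gene Gm44805 added the folds were 21.1 and 5.24. From APP/PS1 to cKO it fell 5.30-fold (log2 change -2.41 ± 0.18, adjusted p = 1.34e-11). Its order was WT, cKO, APP/PS1, with each neighbouring pair called.

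Apoc1, which encodes a small inhibitor of lipid transfer and of lipoprotein uptake, had 10, 9.92 and 9 estimated counts in the WT libraries, 24, 28 and 22 in APP/PS1 and 4, 5 and 13.9 in cKO. The APP/PS1 libraries were above all others, while the cKO libraries spread to both sides of WT because of replicate 3. Apoc1 was 2.77-fold higher in APP/PS1 than in WT (1.47 ± 0.33, adjusted p = 0.000461) and 3.28-fold lower in cKO than in APP/PS1 (-1.71 ± 0.35, adjusted p = 0.000165). The former ranged from 0.80 to 1.51 over 13 processing alternatives and was called in each, and without cKO replicate 3 the latter change was -2.46. cKO and WT differed by -0.24 ± 0.42 (interval -1.07 to 0.58, adjusted p = 0.663), so that their order was not resolved at these counts.

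Apoc2, which encodes the activator that lipoprotein lipase needs, had a different order of groups from Apoc1 and Apoc4 in these counts, with its lowest mean in APP/PS1. It had 22.7, 22.1 and 36.5 estimated counts in the WT libraries, 8.69, 22.1 and 14.8 in APP/PS1 and 45.8, 30.9 and 36.7 in cKO. APP/PS1 replicate 2 reached the WT range, and all cKO libraries were above all APP/PS1 libraries. Apoc2 was 2.39-fold higher in cKO than in APP/PS1 (1.26 ± 0.28, adjusted p = 0.000463), the single member called higher there. The differences from WT missed the threshold, at -0.68 ± 0.30 for APP/PS1 (adjusted p = 0.0537) and 0.58 ± 0.25 for cKO (adjusted p = 0.0629). Both passed it with the replicate block, at adjusted p of 0.0446 and 0.0424, and the former passed it under 8 of 13 processing alternatives and in 3 of 6 fits without a library. Over those alternatives the Apoc2 difference between APP/PS1 and WT ran from -1.36, with offsets for transcript length (adjusted p = 0.000381), to -0.52. Among the 8 were library totals, FPKM and TPM, scales on which the median of all tested genes itself moved by -0.11 to -0.35. Relative to that median Apoc2 was at -0.41 to -0.68 there, beside -0.64 in the reported fit.

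Because the readthrough gene shares exons with both, the rows of Apoc2, Apoc4 and Gm44805 were also summed to a single feature, an alternative chosen after the values had been seen. Gm44805 alone had 12.3, 5.89 and 3.18 estimated counts in the WT libraries, 25.9, 35.4 and 38.2 in APP/PS1 and 15.2, 18.2 and 13.8 in cKO. The sum was 35, 28 and 41 counts in the WT libraries, 160, 178 and 158 in APP/PS1 and 82, 75.9 and 71.0 in cKO, with no overlap between groups. It was 5.21-fold higher in APP/PS1 than in WT (2.38 ± 0.14, adjusted p = 4.52e-14), and fell from APP/PS1 to cKO by 1.16 ± 0.12 on the log2 scale (adjusted p = 5.69e-09). cKO stayed above WT by 1.22 ± 0.16 (adjusted p = 3.72e-07). Most of this sum in APP/PS1 is counts assigned to Apoc4, which shares no ground with Apoc2.

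Apoc2 was therefore also summed with Gm44805 alone, again after the values had been seen. That sum was 35, 28 and 39.6 counts in the WT libraries, 34.6, 57.5 and 52.9 in APP/PS1 and 61, 49.04 and 50.5 in cKO. APP/PS1 replicate 1 lay within the WT range, the APP/PS1 and cKO ranges overlapped, and all cKO libraries were above all WT libraries. The Apoc2 and Gm44805 sum was called higher in APP/PS1 than in WT (0.62 ± 0.20, adjusted p = 0.0109) and in cKO than in WT (0.73 ± 0.20, adjusted p = 0.00386). Between cKO and APP/PS1 the difference of 0.11 ± 0.19 missed the threshold (adjusted p = 0.661). The direction of Apoc2 in APP/PS1, and its call in cKO against APP/PS1, thus differed between the counts assigned to it alone and this sum. Apoc4 summed with Gm44805 kept its direction and its calls, at 4.40 ± 0.21 for APP/PS1 against WT, -2.01 ± 0.15 for cKO against APP/PS1 and 2.39 ± 0.27 for cKO against WT.

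Proportions within the cluster differed between groups, with a limit for Apoc1 given below. Per 1000 FPKM of Apoe, Apoc1 was at 0.986 ± 0.056 FPKM in WT, 0.711 ± 0.033 in APP/PS1 and 0.205 ± 0.15 in cKO. Apoc4 was at 0.0389 ± 0.067, 2.81 ± 0.28 and 0.494 ± 0.048 on the same scale. Apoc2 was at 1.57 ± 0.52, 0.247 ± 0.095 and 0.574 ± 0.14. On the rows as deposited none of the 9 comparisons of these ratios had overlapping groups, and each had an exact two-sided permutation p of 0.1, the smallest that 3 libraries against 3 can give, which stayed at 0.1 after Benjamini-Hochberg adjustment over the 9. The ratio of Apoc1 to Apoe was thus lower in every APP/PS1 library than in every WT library, and lower still in every cKO library. Apoc1 had 9 to 10 counts per WT library, so that the SD of its ratio there may understate the error. In APP/PS1 against WT the approximate interval of the log2 change was 0.82 to 2.12 for Apoc1 and 1.80 to 2.06 for Apoe. The former contained the latter, so that the difference of the Apoc1 to Apoe ratio between APP/PS1 and WT was not resolved at these counts. With the FPKM of Gm44805 added, an alternative chosen after the values had been seen, Apoc2 was at 2.05 ± 0.42, 0.872 ± 0.19 and 0.843 ± 0.13 per 1000 of Apoe, and APP/PS1 and cKO overlapped (exact p = 0.9), so that the difference between them held just for the Apoc2 row alone. All APP/PS1 and cKO libraries were below all WT libraries in that ratio. Apoc4 with Gm44805 was at 0.514 ± 0.28, 3.43 ± 0.19 and 0.763 ± 0.070, where cKO and WT overlapped (exact p = 0.3).

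**Figure D3:**
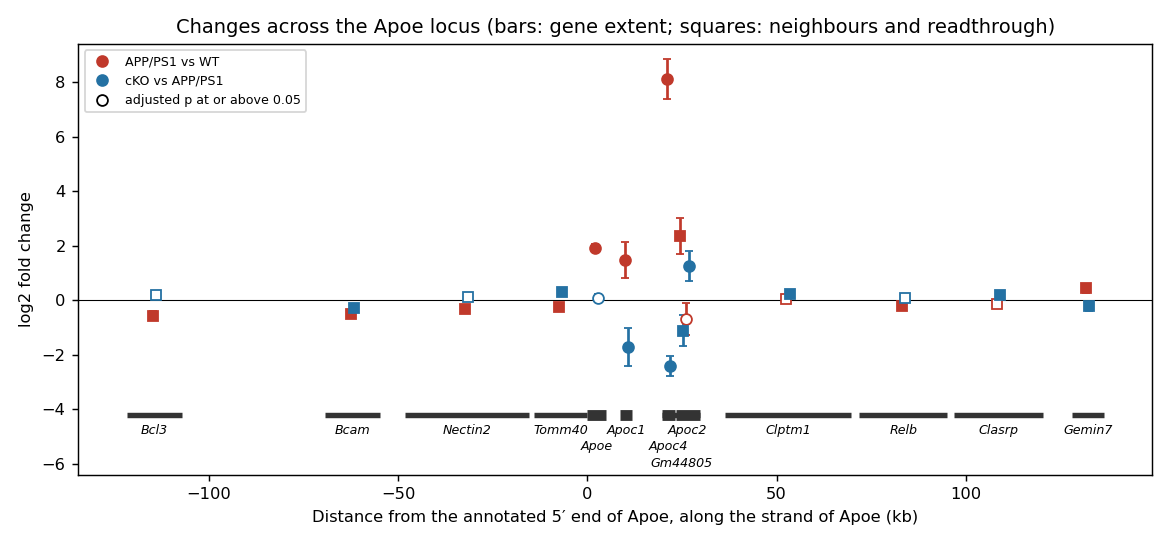
Log2 fold changes (points, with approximate 95% intervals) of the tested genes around Apoe, by distance in kb from the annotated 5′ end of Apoe along its strand, with gene extents as dark bars. Red is APP/PS1 against WT, blue is cKO against APP/PS1, circles are the 4 members, squares are the neighbours and the readthrough gene, and open symbols were not called. The outlying red value of Apoc4 is a fitted value against WT libraries at or near 0, and the flanking genes stay between -0.57 and 0.44.

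The genes that flank the cluster lay between -0.57 and 0.44 in APP/PS1 against WT, where the called cluster genes Apoe, Apoc1 and Apoc4 rose by 1.47 or more and Apoc2 was at -0.68 without a call. In cKO against APP/PS1 the difference of Apoe, 0.09, was smaller than that of several flanking genes. Of the 8 neighbours tested, 1 was called higher and 5 lower in APP/PS1 than in WT, against the 26.9% and 32.0% of all genes given above. Bcl3, a regulator of NF-kappaB, was lower by a log2 change of -0.57 and the adhesion molecule gene Bcam by -0.50. Nectin2 changed by -0.32, Tomm40, a mitochondrial import channel gene whose 3′ end lies 2 nt from the annotated 5′ end of Apoe, by -0.25, and the NF-kappaB subunit gene Relb by -0.20. Gemin7 was called higher at 0.44, but was lower at -0.24 with length offsets. Relb was not called with offsets for GC and length (-0.05, adjusted p = 0.271). Clasrp (-0.12, adjusted p = 0.0675) and Clptm1 (0.06, adjusted p = 0.153) were not called, but both were with the replicate block (adjusted p = 0.0361 and 0.0366). Clasrp was also called without WT replicate 1 or APP/PS1 replicate 2 (-0.15 in each) and Clptm1 without APP/PS1 replicate 1 (0.09). Clptm1 was called in both directions over the alternatives. It was higher with length offsets (0.13, adjusted p = 0.0038) or GC and length offsets (0.26, adjusted p = 1.4e-08), and lower on TPM values (-0.32, adjusted p = 1.2e-05).

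From APP/PS1 to cKO 3 neighbours were called higher and 2 lower. Tomm40 (0.30 ± 0.066), Clptm1 (0.22 ± 0.036) and Clasrp (0.18 ± 0.056) were higher, Bcam was lower (-0.29 ± 0.054), and Gemin7 was called lower at -0.22 but was higher at 0.30 with length offsets and was not called without APP/PS1 replicate 2, cKO replicate 1 or cKO replicate 3 (-0.17, -0.23 and -0.18). With offsets for GC and length Clptm1 (0.07, adjusted p = 0.0639) and Clasrp (0.05, adjusted p = 0.476) were no longer called, nor was Bcam on TPM values (-0.09, adjusted p = 0.140). Between cKO and WT 1 was called higher and 4 lower, with Bcam at -0.79 ± 0.051 and Clptm1 at 0.28 ± 0.036.

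Clu was at 48.2, 47.5 and 48.3 FPKM in the WT libraries, 66.7, 73.7 and 69.2 in APP/PS1 and 52.0, 52.5 and 52.5 in cKO. No 2 groups overlapped, and the cKO libraries lay just above WT. Clu was 1.60-fold higher in APP/PS1 than in WT (0.68 ± 0.039, adjusted p = 2.76e-14) and 1.35-fold lower in cKO than in APP/PS1 (-0.43 ± 0.038, adjusted p = 3.58e-10). Between cKO and WT it was 1.19-fold higher (0.25 ± 0.040, adjusted p = 7.54e-06), which was not called on TPM values (0.035, adjusted p = 0.422), a scale on which the median gene moved by -0.17. Its order, WT, cKO, APP/PS1, was that of Apoc4 with far smaller steps.

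Apod had the pattern least like that of Apoe. It was at 66.8, 68.3 and 69.6 FPKM in the WT libraries, 72.6, 76.1 and 73.2 in APP/PS1 and 31.2, 31.4 and 34.3 in cKO. The cKO libraries were at less than the lowest value of any other library, and APP/PS1 lay slightly above WT. Apod was 2.33-fold lower in cKO than in APP/PS1 (-1.22 ± 0.040, adjusted p = 1.62e-19) and 1.96-fold lower than in WT (-0.97 ± 0.040, adjusted p = 4.36e-17). Both falls were called in all 14 processing alternatives and in all 6 fits without a library, with values from -1.27 to -1.02 and from -1.16 to -0.94.

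The rise of Apod from WT to APP/PS1 was small, 1.19-fold (0.25 ± 0.037, adjusted p = 1.61e-06), and depended on the scale. It was 0.06 with GC and length offsets (adjusted p = 0.155) and -0.14 on TPM values (adjusted p = 0.0088). The median of all tested genes moved by -0.35 on that TPM scale, so that Apod was 0.21 above the median gene there and 0.29 above it in counts. Its order was cKO lowest, then WT and APP/PS1 close together.

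Counting groups that do not overlap in CPM gave 5 of 6 members for APP/PS1 against WT, where Apoc2 overlapped, beside 63.5% of all tested genes. It gave 5 of 6 for cKO against APP/PS1, where Apoe overlapped, beside 59.7%. For cKO against WT it gave 4 of 6, with Apoc1 and Apoc2 overlapping, beside 54.6%.

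**Figure D4:**
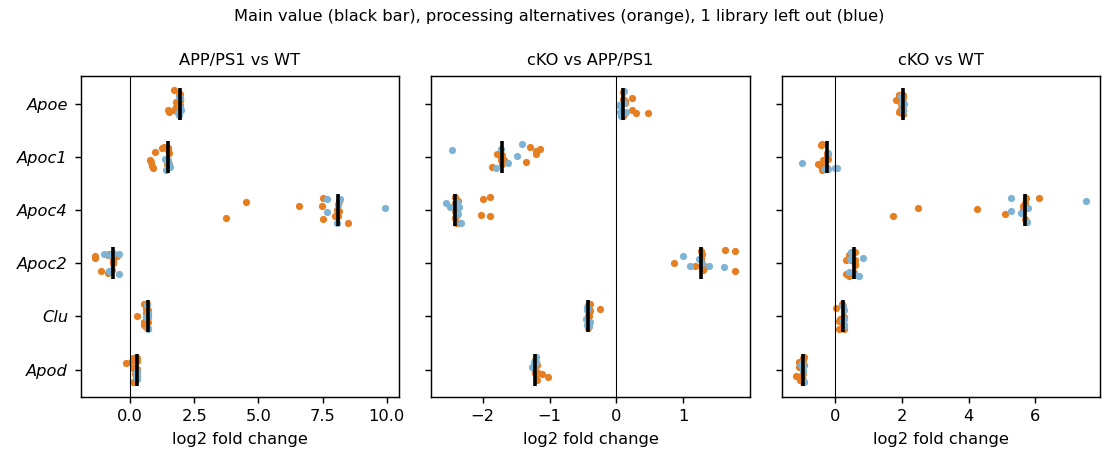
Log2 fold change of each gene in 3 comparisons (panels with their own axes) as reported (black bar), under the processing alternatives (orange points) and with 1 library left out (blue points). Vertical scatter within a gene only separates the points. Most points share the sign of the reported value, with Apod on TPM values in APP/PS1 against WT and Apoc1 without cKO replicate 1 in cKO against WT on the other side of 0.

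Astrocytes, oligodendrocytes and perivascular cells also make Apoe, Clu and Apod, and their markers differed between groups. Summed over 16 astrocyte markers the level was 947 to 958 CPM in WT, 1125 to 1155 in APP/PS1 and 907 to 919 in cKO. From WT to APP/PS1 12 astrocyte markers were called higher and 2 lower, and from APP/PS1 to cKO 15 were called lower and none higher. Gfap, the filament gene of reactive astrocytes, rose by 2.58 ± 0.069 from WT to APP/PS1 and was 2.66 ± 0.068 above WT in cKO. Relative to the astrocyte sum Apoe stood at 1.63 ± 0.087 in WT, 5.19 ± 0.41 in APP/PS1 and 6.90 ± 0.40 in cKO, with no overlap and an exact two-sided permutation p of 0.1 for each pair, the smallest possible (0.115 after adjustment over 15 such ratios). The part of astrocytes in the change of Apoe was not tested.

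The corresponding ratio for Clu was 0.0825 ± 0.00055, 0.111 ± 0.0064 and 0.102 ± 0.0011, also without overlap (exact p = 0.1 for each pair). Clu is further made by choroid plexus and ependyma, whose 6 markers summed to 432 to 452 CPM in WT, 1158 to 1181 in APP/PS1 and 590 to 611 in cKO, the same order as Clu. Of these 6, 5 were called higher in APP/PS1 than in WT and all 6 lower in cKO than in APP/PS1. The transthyretin gene Ttr was among them in both (1.44 ± 0.028 and -0.98 ± 0.028). The part of these cells in the change of Clu was not tested.

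For Apod the ratio to the astrocyte sum was 0.136 ± 0.0021 in WT and 0.136 ± 0.0048 in APP/PS1 (exact p = 0.9) but 0.0725 ± 0.0035 in cKO, below all other libraries. Oligodendrocyte markers, which summed to 2268 to 2336, 2356 to 2414 and 2177 to 2244 CPM, moved far less than Apod, with 5 of 10 called lower in cKO than in APP/PS1. The 12 vessel and perivascular fibroblast markers summed to 939 to 991, 886 to 906 and 653 to 687 CPM, and the 10 markers of border macrophages to 1036 to 1050, 821 to 823 and 739 to 747. Of the vessel and fibroblast markers 8 of 12 were called lower in cKO than in APP/PS1, and 10 of 12 lower and 1 higher than in WT. The falls against WT included Dcn (-1.41 ± 0.30, adjusted p = 0.0076), Col1a2 (-1.17 ± 0.36, adjusted p = 0.036) and the smooth muscle actin gene Acta2 (-0.93 ± 0.039). Of the border macrophage markers 8 of 10 were called lower than in APP/PS1, led by Ms4a7 (-1.46 ± 0.079) and Pf4 (-1.39 ± 0.074). Both of these had been called higher in APP/PS1 than in WT, Ms4a7 by 1.22 ± 0.076 and Pf4 by 0.59 ± 0.066, although Pf4 was at -0.093 with length offsets. The other 2 border macrophage markers, F13a1 (0.34 ± 0.037, adjusted p = 1.1e-08) and Siglec1 (0.22 ± 0.067, adjusted p = 0.0064), were called higher in cKO than in APP/PS1, but Siglec1 was not with offsets for GC and length (0.07, adjusted p = 0.358). The 10 neuron markers also summed lowest in cKO, with 87.5 to 94.7 CPM in WT, 103 to 111 in APP/PS1 and 74.4 to 78.9 in cKO. The part of these cells in the fall of Apod was not tested.

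**Figure D5:**
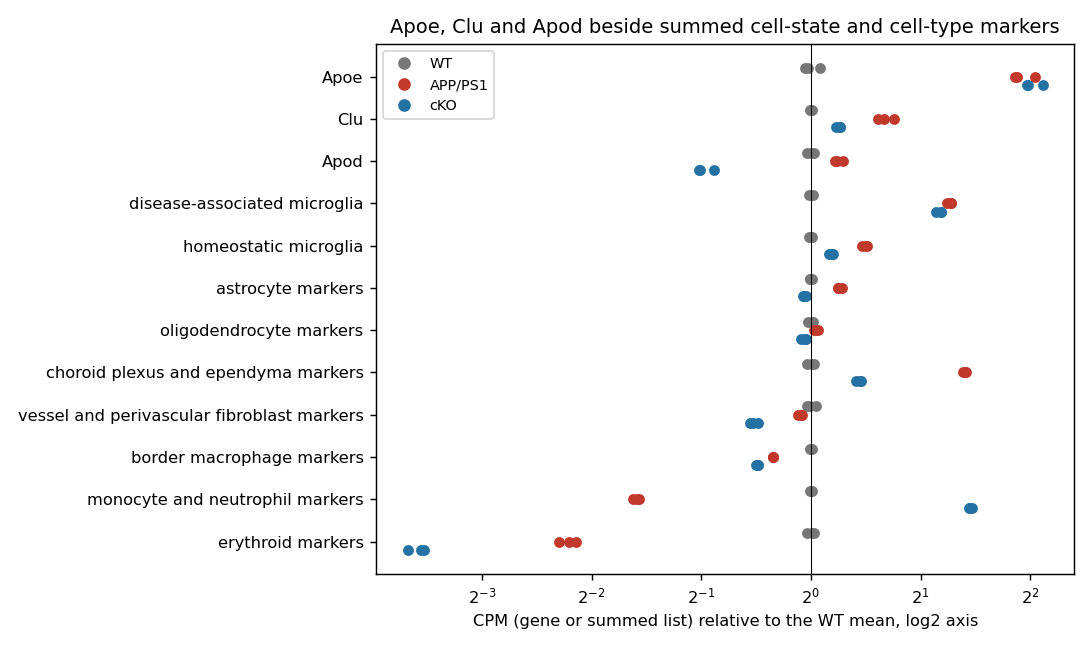
CPM of Apoe, Clu and Apod and summed CPM of 9 marker lists in every library, each relative to its WT mean on a log2 axis, with groups in colour. Apod is lowest in cKO, as are the vessel, border macrophage, astrocyte, oligodendrocyte and erythroid sums, and Clu is highest in APP/PS1, as are the choroid plexus, astrocyte, oligodendrocyte, homeostatic and disease-associated microglial sums. Apoe and the disease-associated sum are high in both amyloid groups.

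Microglial states were compared with Apoe, which is itself a gene of the disease-associated state and was left out of that list. Of 25 disease-associated genes 24 were called higher and 1 lower in APP/PS1 than in WT, with a median log2 change of 1.54 and the protease inhibitor gene Cst7 (6.49 ± 0.043), the osteopontin gene Spp1 (5.45 ± 0.045) and Gpnmb (5.13 ± 0.077) leading. From APP/PS1 to cKO 9 were called higher and 13 lower, with Spp1 (-2.20 ± 0.035) and Gpnmb (-1.40 ± 0.054) lowest. The single gene called lower in APP/PS1 than in WT was Lgals3 (-0.19 ± 0.053, adjusted p = 0.0032), which encodes galectin-3 and is named after its values were seen. Lgals3 rose by 1.05 ± 0.050 from APP/PS1 to cKO, the largest rise on the list. All 25, Lgals3 among them (0.86 ± 0.049), were called higher in cKO than in WT. Relative to the signalling adaptor Tyrobp, Apoe stood at 3.21 ± 0.19 in WT, 3.04 ± 0.25 in APP/PS1 (exact p = 0.5) and 5.89 ± 0.37 in cKO. The Apoe to Tyrobp ratios of WT and APP/PS1 overlapped, and all 3 cKO ratios were above both.

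Blood cell markers also differed between groups. The 11 monocyte and neutrophil markers summed to 2647 to 2675 CPM in WT, 866 to 896 in APP/PS1 and 7218 to 7385 in cKO, and the 6 erythroid markers to 1185 to 1240, 248 to 275 and 95.2 to 105. Of the 11 monocyte and neutrophil markers 9 were called higher and 2 lower in cKO than in WT. The monocyte and neutrophil sum had the order of the mean CPM of Apoc2, which was 0.828 in APP/PS1, 1.33 in WT and 1.995 in cKO, but not that of Apoc2 summed with Gm44805, which was lowest in WT. The erythroid order was that of none of the 6 genes by mean CPM. Their part in the levels of the 6 genes was not tested.

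The other genes of lipoprotein handling were taken from lists that had been drawn up with earlier results of these data known. Of 13 tested receptor genes and regulators 6 were called higher and 4 lower in APP/PS1 than in WT, with a median of 0.07. Trem2, which encodes a microglial receptor that binds apolipoprotein E, rose by 1.53 ± 0.034, and Lrpap1, which encodes a chaperone of lipoprotein receptors, by 1.21 ± 0.040. From APP/PS1 to cKO 5 were called higher and 6 lower. The sorting receptor gene Sorl1, which had been lower in APP/PS1 than in WT (-0.94 ± 0.034), rose by 1.32 ± 0.034 to 0.38 ± 0.032 above WT, and the scavenger receptor gene Cd36 fell by 0.62 ± 0.070. Trem2 was called lower at -0.41 ± 0.033, but was higher at 0.12 with length offsets.

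Of 14 genes of lipoprotein remodelling and lipid export 5 were called higher and 3 lower in APP/PS1 than in WT (median 0.04), 6 higher and 3 lower in cKO than in APP/PS1 (0.06) and 8 higher and 3 lower in cKO than in WT (0.20). Lpl, the lipase that the product of Apoc2 activates, rose by 4.09 ± 0.041 from WT to APP/PS1 and by a further 0.37 ± 0.030 in cKO. Nceh1, a cholesteryl ester hydrolase gene, rose by 1.59 ± 0.058 and the lysosomal cholesterol carrier gene Npc2 by 0.99 ± 0.064 in APP/PS1. Abca1, which loads lipid onto apolipoprotein E, was lower in cKO than in APP/PS1 by 0.38 on the log2 scale (-0.38 ± 0.029), while Abca7 was higher (0.58 ± 0.047).

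Of 14 lipid-sensing transcription factor genes 3 were called higher and 8 lower in APP/PS1 than in WT (median -0.17), and 7 higher and 1 lower in cKO than in APP/PS1 (median 0.13). Srebf2, the regulator of cholesterol synthesis, rose by 0.39 ± 0.037 in APP/PS1, a value that was -0.0047 on TPM values, and by a further 0.42 ± 0.035 in cKO. Nr1h2, which encodes LXR-beta, was 0.26 ± 0.043 higher in cKO than in APP/PS1 and Ppard 0.31 ± 0.045 higher. Against WT Nr1h2 was called lower in APP/PS1 (-0.25 ± 0.043) and was not called in cKO (0.0099 ± 0.042, adjusted p = 0.868). Tfeb (-0.45 ± 0.057) and Rxrb (-0.40 ± 0.049) were lower in APP/PS1 than in WT. Of 15 other apolipoprotein genes 13 were in the table but only 4 passed the filter on low counts. In APP/PS1 against WT the single call was Apol8, lower at -0.38 ± 0.14 (adjusted p = 0.0235) and named after its values were seen, which was not called with the DESeq2 Wald test (adjusted p = 0.141), with offsets for length (0.0931) or GC and length (0.0550), or without any of 3 libraries (WT replicates 1 and 3 and APP/PS1 replicate 3). Apobr, a receptor gene for apolipoprotein B rather than an apolipoprotein, was the single one called in either comparison with cKO (0.80 ± 0.10 against APP/PS1). All 13 together summed to 48.3 to 93.6 CPM per library.

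Genes with the most similar pattern over the 9 libraries were found by Pearson's r of log2 CPM among 9162 or 9163 tested genes with a mean of at least 10 CPM, as a description. For Apoe these were Baiap2l2 (r = 0.998), Gfap (0.998), Tlr2 (0.998), Pdcd1 (0.997) and Tbxas1 (0.997), and for Clu they were Fcer1g, Atp6v1f, Rnf7, Tmem160 and the choroid plexus gene Kl (0.995 to 0.997). For Apoc4 they were Il1b, Scp2, Rpl41, Ufm1 and Slamf9 (0.995 to 0.997). Apod was most like Cd209f (0.995), the Y-linked gene Eif2s3y (0.991), Arsk, Cd209a and Htra1, genes that share its fall in cKO. Apoc1 and Apoc2, with few counts, had no match above 0.960 and 0.946. The points share groups and depth, and 321 genes reached r above 0.95 with Apoe and 641 with Clu, so that such values are common. Among the members themselves Clu and Apoc4 were the most alike (r = 0.985) and Apoc2 and Apod the least (r = -0.77).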

How the data were processed

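Per the labels' protocols, poly-A RNA was read on the DNBSEQ platform in single-end reads of 50 nt. The submitters' processing notes name HISAT, Bowtie2, DESeq2 and the build GRCm38.p6, without roles or versions. Per the file headers the deposited table holds FPKM, TPM, estimated counts and normalised counts of every library. The deposited estimated counts carry decimals and are not scaled between libraries, the deposited FPKM and TPM are per length, and each deposited normalised count is a signal, namely the rounded-up estimated count over 1 factor per library. Every per-sample column could be mapped by name, and means over groups in the authors' table were left aside.

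Estimated counts were rounded to whole numbers, where the planned design had allowed for either kind, and tested with edgeR 4.0.16 in R 4.3.3, using the robust quasi-likelihood fit, TMM scaling, filterByExpr and all 9 libraries in a single model with a mean per group. P-values were adjusted by Benjamini-Hochberg over all 14696 tested genes at a threshold of 0.05. CPM use TMM-scaled library sizes, and a standard error (SE) is the log2 change divided by the square root of the F statistic. Folds against libraries at or under 3 counts were computed against 3 counts per library, which covers counting error only, since PCR copies were not told apart. Ratios and shares were tested by exact two-sided permutation, where 3 libraries against 3 cannot give a p under 0.1. The steps were tested on simulated data.

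The members, lists and tests were chosen with earlier results of these data known. Genes named beside the members were the neighbours on the locus, at most 3 called genes per list and comparison with the largest change and a mean of at least 10 CPM, the 5 genes most like each member, and Gja1, Cx3cr1 and Ddx3y. Gm44805, Tyrobp, Lgals3, Apol8, F13a1 and Siglec1 were used outside this rule after their values were seen. So were some comparisons of Ms4a7, Pf4, Sorl1 and Nr1h2, and not every gene the rule picks is reported here. Replicate numbers count as pairing because all 9 pairs of same-numbered libraries of different groups had deviations that correlated, with r from 0.153 to 0.402, against -0.32 to 0.058 for the 18 other pairs. The deviations are from group means, so that positive r in same-numbered pairs makes those of the others negative on average. The other pairs are thus no independent contrast. The labels do not say what the number marks. Alternatives were DESeq2 size factors and Wald test (DESeq2 1.42.0), library totals, limma-voom and limma (3.58.1) on log2(FPKM + 1), log2(FPKM + 0.1) and log2(TPM + 1), a filter of 10 counts in every library or none, fits of just the compared groups, the replicate block, offsets by transcript length or by GC content and length, and leaving out each library. Sums of Apoc2, Apoc4 or both with Gm44805, and ratios to Apoe from these, were added after seeing the data.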

Additional observations from a re-analysis of the deposited data

How the results depend on the processing

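Over the planned processing alternatives 225 of 243 values of the members kept their direction and side of the threshold, 15 came to pass it, 2 no longer passed it and 1 changed sign. Of 12 values from the sums with Gm44805, chosen after seeing the data, 6 kept both, 2 came to pass it, 1 no longer passed it and 3 changed sign. Of 108 with a library left out 101 kept both, 6 came to pass it and 1 changed sign. With the replicate block 9319, 8851 and 7934 genes were called in place of 8670, 8085 and 7010 for APP/PS1 against WT, cKO against APP/PS1 and cKO against WT. Among the members the block brought Apoe in cKO against APP/PS1 (0.09) and Apoc2 in APP/PS1 against WT (-0.68) and cKO against WT (0.58) past the threshold and changed no other call of a member. Requiring 10 counts in every library removed Apoc1, Apoc2 and Apoc4, which left 3 members called in APP/PS1 against WT and 2 in cKO against APP/PS1. In these comparisons Apoc2 was 2.38 and -1.16 in the sum with Apoc4 and Gm44805, where Apoc4's own counts are included, and 0.62 and 0.11 summed with Gm44805 alone, and the difference of its ratio to Apoe between cKO and APP/PS1 was -0.028 with Gm44805 added. Apod in APP/PS1 against WT was -0.14 on TPM values, where its difference in percent of the library was -0.0014, and Apoc1 in cKO against WT was 0.055 without cKO replicate 1, in a range from -0.99 to 0.055 with a library left out. The difference of the Apod to astrocyte ratio between APP/PS1 and WT, -0.00034 as reported, was 0.0034 without Gfap and Agt in the list and ran from -0.0031 to 0.0014 with a library left out.

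Among other named genes Clptm1 in APP/PS1 against WT was -0.076 with library totals, -0.065 and -0.066 on FPKM with either pseudocount and -0.32 on TPM, Srebf2 was -0.0047 on TPM, Gemin7 -0.24 and Pf4 -0.093 with length offsets with and without the block, and Clasrp 0.068 with GC and length offsets. In cKO against APP/PS1 Gemin7 was 0.30 with length offsets blocked or not, and 0.16 with offsets for GC and length, and Trem2 was 0.12 with length offsets and 0.11 blocked. The cause of these turns was not tested. For the named genes that were followed over the processing settings chosen at the start, calls lost or gained without a change of sign numbered 19 and 10 of 894 values. With the block those gained were Clasrp and Clptm1 in APP/PS1 against WT. Scaling moved the split of calls. In APP/PS1 against WT 45.7% of called genes were higher, and 29.5% with library totals, 30.2% on FPKM and 14.7% on TPM. In cKO against APP/PS1 the share was 49.6%, and 75.3% on TPM. In cKO against WT it was 51.9%, and 30.4%, 32.0% and 19.8% on the same scales. Counts of at most 125 per library limit the precision for Apoc1, Apoc2 and Apoc4.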
